A study of Mus musculus with 2 samples.

Results

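A set of 5 genes of lipid, steroid and carbon metabolism was followed in single LβT2 cells treated with vehicle or with gonadotropin-releasing hormone (GnRH): Akr1cl, Dbi, Idh1, Acadl and Insig2. They are part of the 1068 genes analysed here, and they were selected by symbol with their levels, their ratios between treatments, their spread between cells and their mutual correlations in these same cells already known. Those values are therefore given as descriptions. LβT2 is an immortalised mouse line of pituitary gonadotropes, and all cells of both groups carry the transgene that immortalised it, SV40 T antigen under control of rat LHβ sequence. Cells of the same passage were exposed for 40 min to vehicle or to 2 nM GnRH, the hypothalamic peptide that acts on gonadotropes. Transcripts were counted by GEM Drop-seq, a droplet method that tags the 3′ end of each captured transcript with a unique molecular identifier (UMI), so that amplified copies count once. Each treatment had 1 library. Cells of 1 library are not replicates, so the differences below could not be checked against replicates and carry no p-value.

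All of these genes code for proteins that handle fatty acyl-CoA, sterols or the reducing power used to make them. Dbi, also known as acyl-CoA-binding protein, carries activated fatty acids in the cytosol, and its peptide also binds the benzodiazepine site of the GABA-A receptor. Acadl, the mitochondrial long-chain acyl-CoA dehydrogenase, catalyses an early step of fatty acid β-oxidation. Insig2 is an endoplasmic reticulum protein that holds the SCAP–SREBP complex back when sterols are plentiful and promotes the breakdown of HMG-CoA reductase. Akr1cl belongs to the aldo-keto reductases, a family that reduces steroids and other ketones. Idh1, the cytosolic NADP+-dependent isocitrate dehydrogenase, makes NADPH for lipid synthesis, and in reverse it feeds carbon derived from glutamine toward citrate. Among the members, the link to glutamine rests on Idh1 alone.

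The members lie on the minus strand of chromosome 1 (GRCm38). Akr1cl (ENSMUSG00000025955) spans 65012689 to 65032759 and Idh1 (ENSMUSG00000025950) spans 65158616 to 65186500, with 125.9 kb between them and no other analysed gene of at least 100 UMIs in the gap. Acadl (ENSMUSG00000026003) spans 66830839 to 66863277, Dbi (ENSMUSG00000026385) 120113280 to 120121078, and Insig2 (ENSMUSG00000003721) 121304353 to 121332589. The 5′ ends of Idh1 and Dbi each face a gene on the plus strand across a short gap. Pikfyve, which makes the phosphoinositide PI(3,5)P2, starts 182 bases from Idh1, and 3110009E18Rik starts 108 bases from Dbi. Akr1cl has no such partner among the analysed genes with at least 100 UMIs, and other genes were not searched. Sequence next to the start is shown because the members differ there in CpG content. The lines below give the 250 bases before the Akr1cl start and the whole gap of the head-to-head pairs, read 5′ to 3′ on the minus strand from RefSeq (GRCm38.p6), with CG dinucleotides in capitals.
Akr1cl, chr1:65032760-65033009: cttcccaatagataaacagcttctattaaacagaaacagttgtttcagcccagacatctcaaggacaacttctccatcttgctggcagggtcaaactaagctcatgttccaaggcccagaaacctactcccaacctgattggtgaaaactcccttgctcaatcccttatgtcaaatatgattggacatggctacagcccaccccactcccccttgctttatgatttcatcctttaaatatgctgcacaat
Dbi, chr1:120121079-120121186: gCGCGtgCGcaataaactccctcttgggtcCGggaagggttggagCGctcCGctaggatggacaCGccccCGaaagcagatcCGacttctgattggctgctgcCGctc
Idh1, chr1:65186501-65186682: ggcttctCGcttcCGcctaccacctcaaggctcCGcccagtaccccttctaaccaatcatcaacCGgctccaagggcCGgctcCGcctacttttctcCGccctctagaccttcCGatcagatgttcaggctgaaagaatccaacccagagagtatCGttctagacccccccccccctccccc

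The Akr1cl stretch holds 0 CpG in 250 bases. The shorter Dbi gap holds 10 CpG in 108 bases, and the Idh1 gap holds 9 in 182. In the RefSeq windows of 300 bases around annotated starts (250 before and 50 after), the median over 32851 windows was 7 CpG, with quartiles of 3 and 20. Akr1cl had 0 in its single window. Acadl had 34, Dbi 28 and 22 at its separate starts, and Idh1 23 at both of its starts. Insig2 had windows with 0, 17 and 28 CpG. Windows without any CpG made up 5.43% of the total. A search of both strands for the CCAAT box (CCAAT) found 3 matches in the Akr1cl window and 3 in the CpG-free Insig2 window. There was 1 match in each Dbi window, 1 in the first Idh1 window, and none in the Acadl window or the remaining windows of Idh1 and Insig2. The CCAAT box was present in 37.4% of all windows. Neither the sterol regulatory element TCACNCCAC, found in 1.24% of windows, nor the SF1 site CAAGGTCA, found in 1.56%, occurred in a member's window. No match says only that these letters are not in these windows.

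The vehicle library held 1992 cells with 1126320 UMIs of the analysed genes, and the GnRH library held 1889 cells with 1118763. The median per cell was 543.5 UMIs and 561 UMIs, respectively. These totals cover only the analysed genes, nearly all on chromosome 1. As a check on cell type, Scg2, the secretory granule protein secretogranin II, was found in 100% of cells of both libraries. The inhibin and activin subunit gene Inhbb was found in 76.4% of vehicle and 72.7% of GnRH cells, and Inha in 49.4% and 50.9%. The fibroblast genes Col3a1 and Col5a2 had 0 UMIs, and the immune gene Cxcr4 had 1 UMI in each library. The defining gonadotrope genes Lhb, Fshb, Cga and Gnrhr, and the genes of steroid-making cells Star, Cyp11a1 and Hsd3b1, were not analysed here. The early gene Btg2, as a check on the treatment labels, had 1049 UMIs in vehicle cells and 33510 in GnRH cells (log2 ratio 5.01).

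Levels are given as CPM, UMIs of a gene scaled to the library total of the analysed genes, with 95% exact Poisson intervals that cover counting error only. Because 1 UMI marks 1 transcript end, levels were not divided by transcript length when genes were set side by side. Dbi was by far the most abundant member. It had 12004 UMIs in the vehicle library (10658 CPM, 10468 to 10850) and 11249 in the GnRH library (10055 CPM, 9870 to 10242), and it ranked 16 among the analysed genes in both. Idh1 followed with 2001 UMIs (1777 CPM, 1700 to 1856) and 1945 UMIs (1739 CPM, 1662 to 1818). Insig2 had 1606 UMIs (1426 CPM, 1357 to 1497) and 1522 UMIs (1360 CPM, 1293 to 1431). The level of Dbi was thus 6.0 times that of Idh1 in vehicle cells and 5.78 times in GnRH cells. Akr1cl had 817 UMIs (725 CPM, 676 to 777) and 691 UMIs (618 CPM, 572 to 665). Acadl was lowest, at 659 UMIs (585 CPM, 541 to 632) and 582 UMIs (520 CPM, 479 to 564). The order of the members was the same in both libraries. Within each library the intervals of neighbours in that order did not overlap, although the interval for Akr1cl is too narrow, since its UMIs were concentrated in few cells, as described below.

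Between treatments the levels of the members moved little. None of the 5 reached 2-fold higher in GnRH cells, where 5 of 409 genes with at least 100 UMIs did (1.22%), and none was 2-fold lower (0% of the 409). None passed 1.5-fold either, where 2.44% of the 409 genes were higher and 1.71% lower, so these counts are near the background. The log2 ratio of GnRH over vehicle was -0.23 for Akr1cl (95% counting interval -0.38 to -0.08) and -0.17 for Acadl (-0.33 to -0.01). It was -0.08 for Dbi (-0.12 to -0.05), -0.07 for Insig2 (-0.17 to 0.03) and -0.03 for Idh1 (-0.12 to 0.06). All 5 ratios were below 0, but those of Dbi, Idh1 and Insig2 were above 0 after TMM scaling, and 74.6% of the 409 genes were below 0 as well. The median over the 409 genes was -0.09 and that over the members -0.08. The general median lay inside the counting interval of every member. The intervals of the levels overlapped between libraries for Idh1, Insig2 and Acadl. They did not overlap for Akr1cl and Dbi, the members with the most variation beyond Poisson counting, for which such intervals are too narrow.

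**Figure D1:**
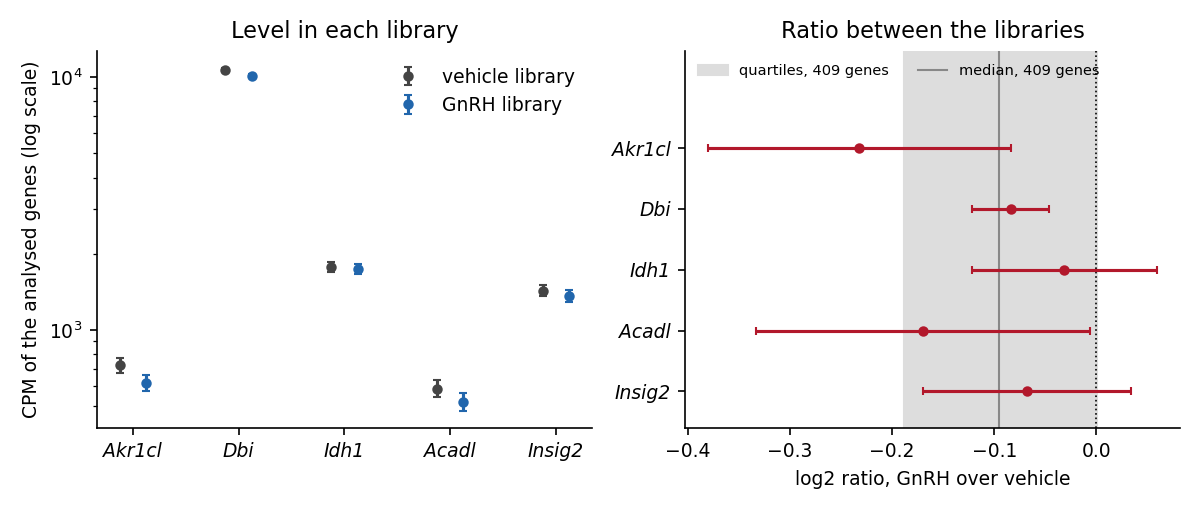
Left, level of each member in CPM of the analysed genes (log axis) in the vehicle and GnRH libraries, 1 library each; right, log2 ratio of GnRH over vehicle. Bars are 95% counting intervals, the grey band and line are the quartiles and median of 409 genes, and the median of -0.09 falls within each member's interval.

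The wider set of metabolism genes also held no large difference. Of 47 genes in 4 lists (fatty acyl-CoA; sterol and steroid; sphingolipid, phospholipid and phosphoinositide; glutamine, glutamate and NADPH), 43 were analysed and 23 had at least 100 UMIs. Of these 23, 0 were 2-fold higher, 0 were 2-fold lower and 0 were past 1.5-fold, again near the shares over the 409 genes (1.22% and 0% at 2-fold, 2.44% and 1.71% at 1.5-fold). The median log2 ratio of the 18 that are not members was -0.09. Ratios below 0, which 74.6% of the 409 genes had, were found in 6 of 6 fatty acyl-CoA genes with at least 100 UMIs, 4 of 4 sterol and steroid genes, 7 of 9 sphingolipid, phospholipid and phosphoinositide genes and 2 of 4 genes of the glutamine list. The fatty acyl-CoA genes ran from -0.17 (Acadl) to -0.05 (Hibch, a hydrolase of valine breakdown). Acsl3, which activates long-chain fatty acids, had 1383 UMIs in vehicle and 1255 in GnRH cells (log2 ratio -0.13). The adiponectin receptor gene Adipor1 had 5319 and 4835 UMIs (-0.13). Beside Akr1cl and Insig2, the sterol and steroid list had Hdlbp, a lipoprotein-binding RNA-binding protein, at 4905 and 4600 UMIs (-0.08), and Cyp20a1 at 651 and 646 UMIs (0.00). All 9 Ugt1a genes of that list, which code for glucuronosyltransferases, had 0 UMIs. Overlap among the Ugt1a genes was not examined, and the treatment of reads shared between genes is not given. Their 0 counts therefore do not show that they were silent. Cps1, a urea cycle gene, had 0 UMIs. Among the listed genes with at least 100 UMIs, Etnk2, an ethanolamine kinase, had the highest ratio, with 807 and 1004 UMIs (0.32). Inpp4a, an inositol polyphosphate phosphatase, had the lowest, with 711 and 560 UMIs (-0.33). The list thus ranged more widely than the members, and the counting intervals of Etnk2 (0.19 to 0.46), Inpp4a (-0.50 to -0.17) and Pgap1, a remodelling enzyme of GPI anchors (-0.44 to -0.13), did not hold the general median.

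The head-to-head partners of Idh1 and Dbi had ratios near 0. Pikfyve had 708 UMIs in vehicle cells and 695 in GnRH cells (log2 ratio -0.02, -0.17 to 0.14). 3110009E18Rik had 273 and 266 UMIs (-0.03, -0.28 to 0.22). Dbi was far more abundant than the gene that shares its gap. Plekhm3, the nearest analysed gene with at least 100 UMIs on the other side of Akr1cl, 55.9 kb away, had 231 and 206 UMIs (-0.16, -0.43 to 0.12). Lancl1, 137.2 kb from Acadl, had 943 and 1037 UMIs (0.15, 0.02 to 0.28), the neighbour whose interval lay above 0 and above the general median. The intervals of the remaining neighbours, Kansl1l beside Acadl, Tmem37 beside Dbi and Ccdc93 beside Insig2, included 0.

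The members also differed in how their transcripts were distributed over cells. Dbi was detected in nearly every cell, in 96.2% of vehicle cells (95% exact binomial interval 95.3 to 97.0) and 97.7% of GnRH cells (96.9 to 98.3). Idh1 was detected in 59.5% and 59.4% of cells, and Insig2 in 53.6% and 54.6%. Acadl was detected in 25.2% of vehicle cells (23.3 to 27.1) and 23.9% of GnRH cells (22.0 to 25.9). Akr1cl, although more abundant than Acadl in both libraries, was detected in fewer cells, 18.5% (16.8 to 20.3) and 17.6% (15.9 to 19.4). Poisson counting at the same mean level and the same cell totals would place an Akr1cl UMI in 32.7% of vehicle and 30.0% of GnRH cells. The corresponding expectation for Acadl was 27.5% and 26.0%, just above the observed intervals. No cell type that lacks these genes was identified with the few markers analysed, so the shares include any UMIs from free RNA.

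To compare the libraries at equal depth, each cell was thinned to 300 UMIs of the analysed genes, which left out 219 vehicle and 108 GnRH cells. Over 20 thinnings, Akr1cl was found in a mean of 12.6% of vehicle cells (11.8 to 13.1) and 11.3% of GnRH cells (10.6 to 12.2). Dbi was found in 93.9% and 92.8%, Idh1 in 41.1% and 39.6%, and Insig2 in 36.1% and 34.6%. Acadl was found in 14.8% (13.1 to 16.0) and 12.8% (11.9 to 13.9). The ranges of the libraries overlapped for each of the 5 members, but they show the noise of thinning alone. In the single thinning planned, the 95% binomial intervals of Acadl did not overlap (15.6%, 13.96 to 17.40, in vehicle and 12.1%, 10.59 to 13.68, in GnRH cells).

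In Akr1cl the UMIs were concentrated in a minority of cells. Among vehicle cells, 1623 had no Akr1cl UMI, 335 had 1 to 4, and 34 had 5 or more, where Poisson counting gives 0.401 cells with 5 or more. Among GnRH cells the numbers were 1556, 307 and 26, against an expectation of 0.208 for the last. The 100 vehicle cells richest in Akr1cl, 5% of the library, held 59.9% of its UMIs, and the 95 richest GnRH cells held 60.6%. The highest count was 30 in a vehicle cell and 23 in a GnRH cell. Acadl served as a comparison at a like level. The richest 5% of cells held 36.0% of its UMIs in vehicle and 37.1% in GnRH cells, and no cell had more than 5. For Idh1 and Insig2, which are more abundant, the shares of the richest 5% lay between 19.2% and 21.0%. The highest counts were 8 and 6 in any cell. Dbi had a median of 5 UMIs per cell in both libraries, quartiles of 3 and 8, and highest counts of 35 and 30.

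**Figure D2:**
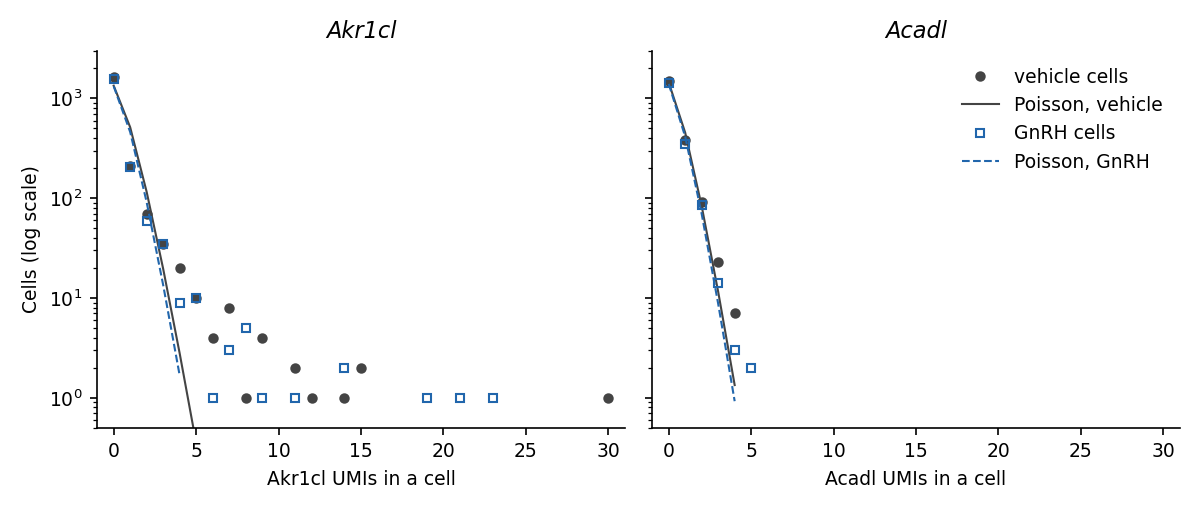
Number of cells (log axis) with each number of Akr1cl UMIs (left) or Acadl UMIs (right), in vehicle and GnRH cells; lines are the Poisson expectation at the same mean and cell totals. Akr1cl has a tail of cells up to 30 UMIs, whereas no cell has more than 5 Acadl UMIs.

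The spread was the squared CV over cells (SD over mean), divided by what Poisson counting gives at each cell's UMI total. A value of 1 means no spread beyond counting. Of the members, 2 reached 1.5 times the expectation in the vehicle library, against 20 of 344 genes averaging 0.1 UMI or more per cell (5.81%). In the GnRH library 1 member did, against 23 of 342 genes (6.73%). Akr1cl had 4.46 in vehicle and 4.58 in GnRH cells, rank 1 of the genes compared in each library. Dbi stood at the threshold, with 1.5 (rank 20) and 1.42 (rank 31). Acadl had 1.21 in both libraries, Idh1 had 1.04 and 1.10, and Insig2 had 0.97 and 0.95, among the lowest of all genes compared (rank 330 and 336). The median over genes was 1.07 in both libraries. At 300 UMIs per cell the order was less extreme. In a single thinning Akr1cl ranked 3 of 300 genes in vehicle and 6 of 292 in GnRH cells, and Insig2, with 1.05 and 1.06, ranked 144 and 129, near the middle. The Akr1cl value was also lower, with means over 20 thinnings of 3.08 (2.72 to 3.51) and 2.64 (2.25 to 2.90). The Dbi means were 1.39 and 1.35.

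**Figure D3:**
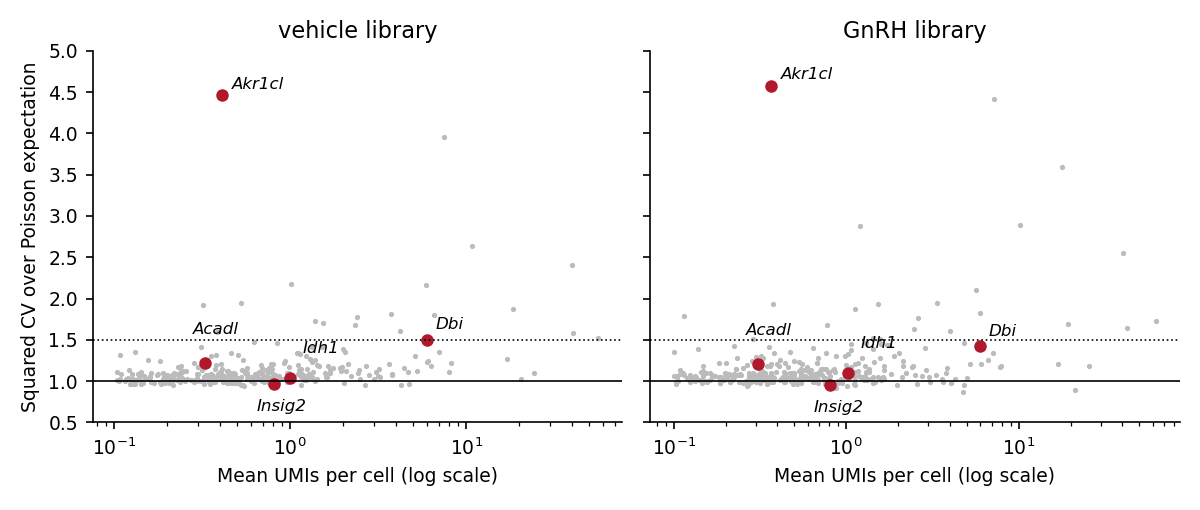
Squared CV over the Poisson expectation (y axis) against mean UMIs per cell (log x axis) for genes averaging at least 0.1 (344 in vehicle cells, 342 in GnRH cells); members are in red, the solid line is 1 and the dotted line 1.5. Akr1cl is the highest point in both libraries, and Insig2 lies just under 1.

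The spread was set beside the promoter CpG count. Of the genes compared for spread, 83.1% in vehicle and 83.0% in GnRH cells matched a RefSeq promoter, 286 and 284 genes. Taking for each gene the window with the most CpG, Akr1cl was the only one with 0 in either library. The next lowest, Sag with 3 and Atp2b4 and Plekha6 with 4, were named after their values were seen. Over all matched genes the difference was smaller. Genes at 1.5 times the Poisson expectation or more had a median of 21 CpG in vehicle cells (18 genes) and 18 in GnRH cells (21 genes), and the other genes had 24.5 and 25. Dbi, at the threshold, had 28 CpG in its richest window, and Insig2, lowest of the members without thinning, also had 28.

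Most member pairs had correlations near 0 across cells. Correlations were taken over cells thinned to 300 UMIs (1773 vehicle and 1781 GnRH cells) and averaged over 20 thinnings. They are descriptions over cells that share a library. Among the 10 member pairs the median Pearson correlation was 0.00 in both libraries, like the median of all 57291 pairs of genes this abundant in both libraries. The highest pair was Akr1cl with Idh1, at 0.071 in vehicle cells (range 0.049 to 0.111) and 0.083 in GnRH cells (0.037 to 0.123). Akr1cl with Acadl had 0.030 and 0.050. The remaining 8 pairs lay between -0.025 and 0.021. For scale, the upper bound of the central 95% of all gene pairs was 0.038 in each library. Akr1cl with Idh1 was above that value in both libraries, and a correlation of this size in sparse counts is weak. At this depth the spread of Idh1, Acadl and Insig2 was 0.99 to 1.10 times Poisson (means over 20 thinnings). Counting noise can hold correlations of such genes near 0, so low values do not show that the members vary independently.

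The level of Idh1 differed between cells grouped by their Akr1cl UMIs, a grouping chosen after the data were seen. In vehicle cells without an Akr1cl UMI it was 1707 CPM (1623 to 1795), in cells with 1 to 4 it was 1994 CPM (1806 to 2196), and in the 34 cells with 5 or more it was 2642 CPM (2006 to 3416), with Akr1cl itself left out of the totals. In GnRH cells it was 1656 CPM (1573 to 1743), 1978 CPM (1787 to 2184) and, in the 26 cells with 5 or more, 3387 CPM (2565 to 4389). Cells rich in Akr1cl thus had 1.55 times and 2.04 times the Idh1 level of cells without it, and the intervals of those classes did not overlap in either library. Acadl was 571 CPM (522 to 622) in vehicle cells without Akr1cl and 1048 CPM (664 to 1572) in those with 5 or more, the latter from 23 UMIs, and these intervals did not overlap. In GnRH cells the values were 486 CPM (442 to 534) and 832 CPM (455 to 1396), the latter from 14 UMIs, with overlapping intervals. The Acadl level was thus 1.84 times and 1.71 times that of cells without Akr1cl, in vehicle cells a larger fold than that of Idh1. The intervals of Insig2 and Dbi overlapped between classes, with levels in the Akr1cl-rich cells of 1.12 and 0.885 times those without it in vehicle cells and 0.945 and 0.961 times in GnRH cells. Cells rich in Akr1cl also had more UMIs, with a median of 630 against 531 in vehicle and 613 against 551 in GnRH cells. Without the 5% of cells with most UMIs, the Idh1 difference was 1.74-fold and 1.99-fold and the Acadl difference 2.07-fold and 1.86-fold. No doublet caller was run, and the part of cells captured together was not tested further.

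**Figure D4:**
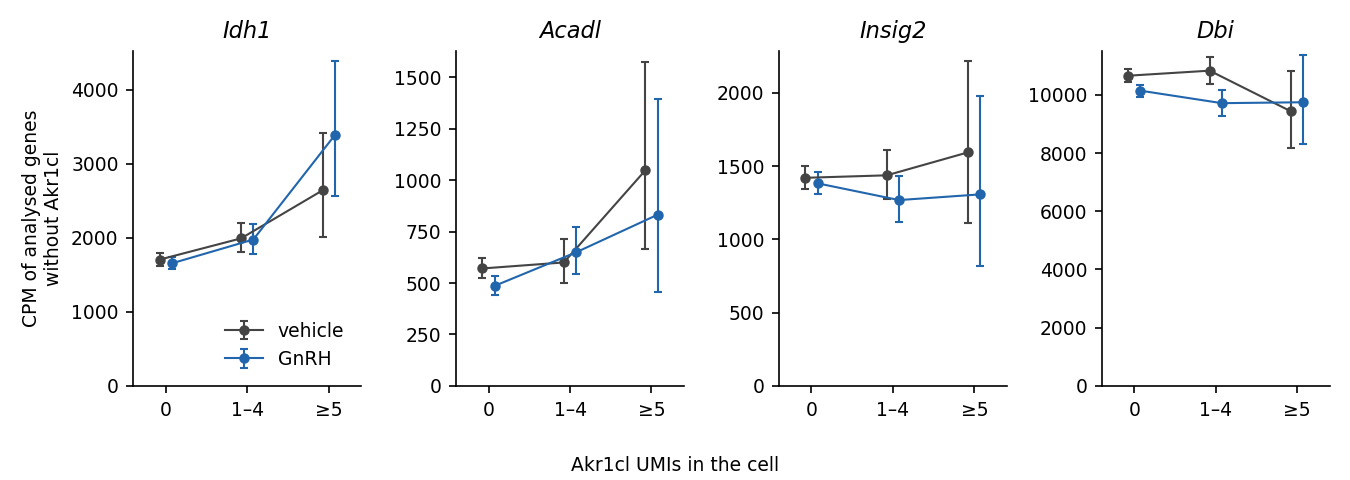
Level of Idh1, Acadl, Insig2 and Dbi (CPM of the analysed genes without Akr1cl) in cells with 0, 1 to 4 or at least 5 Akr1cl UMIs, in vehicle and GnRH cells; bars are 95% Poisson intervals and each axis starts at 0. Idh1 goes from 1707 to 2642 CPM in vehicle and from 1656 to 3387 CPM in GnRH cells, while the intervals of Dbi and Insig2 overlap between classes.

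The genes whose pattern over cells was most like that of each member were named by the lower of their correlations in the vehicle and GnRH libraries at 300 UMIs, and the values given are means over 20 thinnings. For Akr1cl these were Ecel1, an endothelin-converting enzyme-like peptidase (0.157 and 0.144), Mdm4, a p53 inhibitor (0.089 and 0.085), and Etnk2 (0.102 and 0.117). Each exceeded the Akr1cl correlation with Idh1. For Dbi they were Igfbp2, an insulin-like growth factor binding protein (0.151 and 0.145), Nucks1, a chromatin protein (0.111 and 0.093), and Ndufb3, a subunit of respiratory complex I (0.102 and 0.074). For Acadl they were Ptma, prothymosin α (0.106 and 0.095), Mcm3, a subunit of the replicative helicase (0.059 and 0.082), and Dtymk, thymidylate kinase (0.073 and 0.076). Of the genes named for Idh1, Akr1cl alone stayed above 0.038, and Mrpl15 and Ralb were at most 0.021. For Insig2 the named genes Nfasc, Paqr8 and Kdm5b were at most 0.028.

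Some genes went the opposite way to Dbi and Akr1cl, and these were picked after the values were seen. Cntnap5a, a neurexin-family adhesion gene, had -0.174 and -0.182 with Dbi. Mcm3, which went with Acadl, had -0.101 and -0.108 with Dbi. Ramp1, a receptor activity-modifying protein, had -0.125 and -0.127 with Akr1cl, and Igfbp5, another insulin-like growth factor binding protein, had -0.120 and -0.113. Of the adjacent genes on the chromosome, Akr1cl and Idh1 are the pair given above. Plekhm3 had 0.045 and 0.044 with Akr1cl, above 0.038 in both libraries. Dbi with its head-to-head partner 3110009E18Rik had 0.012 and 0.023, and Idh1 with Pikfyve had 0.019 and 0.028. Tmem37, 39.2 kb away on the other side of Dbi, had 0.076 and 0.054 with it.

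Across GnRH cells, Akr1cl and Dbi stood at opposite ends in their relation to Btg2, the gene that differed most between the libraries. The correlation with Btg2 was 0.133 for Akr1cl, place 7 of 338 genes from the highest, and -0.150 for Dbi, place 336. The central 95% of genes lay between -0.109 and 0.122. In vehicle cells, where Btg2 was low, the values were 0.012 and 0.014. Acadl, Idh1 and Insig2 lay between -0.022 and 0.028 in GnRH cells. The level of Btg2 in GnRH cells was 28453 CPM (28106 to 28804) where no Akr1cl UMI was found, 35545 CPM (34721 to 36384) with 1 to 4, and 45579 CPM (42410 to 48922) with 5 or more. In vehicle cells it was 894 CPM (833 to 958), 1113 CPM (974 to 1267) and 774 CPM (451 to 1240), the last from 17 UMIs and with no order. These Poisson intervals are too narrow for Btg2, whose counts also varied beyond Poisson between cells.

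The level of some members differed with the total number of UMIs in a cell. Acadl was higher in deeper cells. With cells ordered by UMI total and cut into 4 equal groups, from the shallowest group to the deepest it went from 493 CPM (386 to 621) to 709 CPM (632 to 793) in the vehicle library and from 423 CPM (329 to 535) to 585 CPM (514 to 662) in the GnRH library. In vehicle cells the intervals of these groups did not overlap. Insig2 had no steady order in vehicle cells, at 1529 CPM (1336 to 1742), 1596 CPM, 1379 CPM and 1330 CPM (1224 to 1443), and the intervals of the end groups overlapped. In GnRH cells it went down, from 1611 CPM (1422 to 1818) over 1573 CPM and 1335 CPM to 1159 CPM (1059 to 1267), and the end intervals did not overlap. Idh1 had no steady order in vehicle cells, at 1704 CPM, 2039 CPM (1862 to 2229), 1738 CPM and 1683 CPM (1563 to 1810) in the 4 groups, and went from 1975 CPM (1765 to 2203) to 1580 CPM (1462 to 1705) in GnRH cells. Akr1cl had 845 CPM (703 to 1009) in the shallowest and 544 CPM (477 to 618) in the deepest vehicle cells, but with 768 CPM and 892 CPM between them there was no steady order. In GnRH cells it had 673, 750, 513 and 594 CPM, likewise without order. Dbi stayed within 9571 and 10804 CPM throughout. In GnRH cells its deepest group had 9571 CPM (9278 to 9871). That interval overlapped the one of the shallowest group (9795 to 10783). It did not overlap those of the groups between them (9885 to 10700 and 10068 to 10811). Poisson intervals are too narrow for Dbi. The total of a cell counts only the analysed genes and was not separated from cell size, cell cycle or capture.

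**Figure D5:**
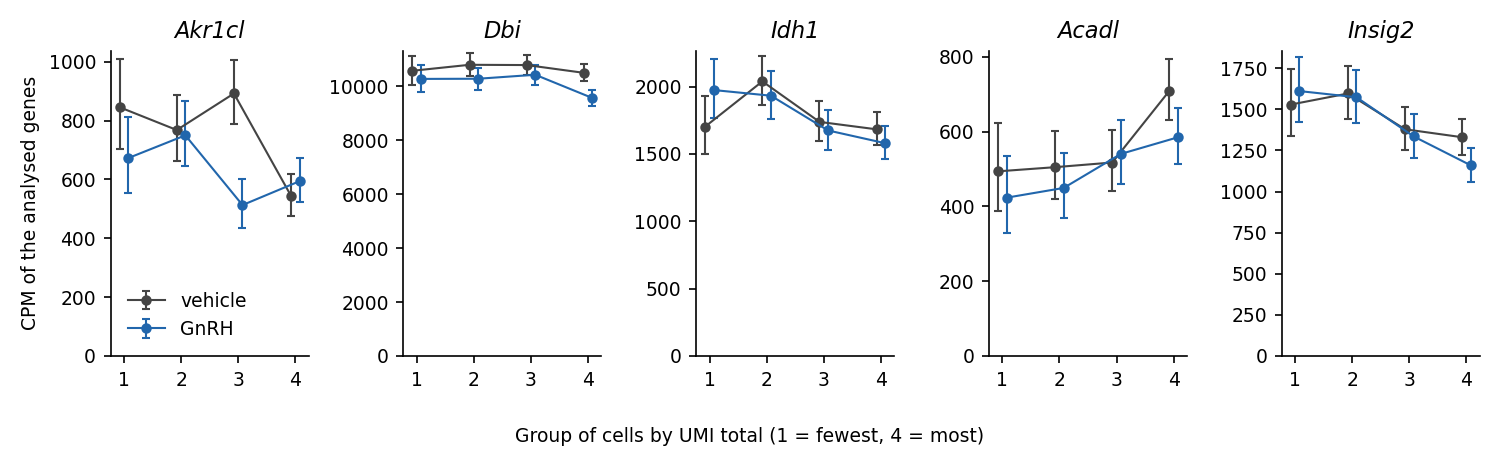
Level of each member (CPM of the analysed genes) in 4 equal groups of cells ordered by UMI total, in vehicle and GnRH cells; bars are 95% Poisson intervals and each axis starts at 0. Acadl goes up from the shallowest to the deepest group in both libraries, and Insig2 goes down from 1611 to 1159 CPM in GnRH cells.

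The counts of some members carry an annotation limit. Akr1cl overlaps the pseudogene Gm8550 and Insig2 the unverified transcript Gm37174, each on the opposite strand. Acadl overlaps the pseudogene Gm15793 on its own strand and the small nuclear RNA gene Gm27934 on the other. The use of strand in counting is not given in the sources used here, so reads of overlapping genes cannot be told apart. Idh1 and Dbi overlap no annotated gene. In a search of the last 500 bases of their transcripts, 4 members had no look-alike of at least 90% identity over 100 bases. Dbi had 1, the processed pseudogene Gm12222 on chromosome 11, with 93.9% identity over 261 bases, which is not in the list of counted genes.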

How the data were processed

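Per the labels, LβT2 cells received vehicle or GnRH, 1 library each. The authors made the deposited UMI counts per gene and cell, whole numbers without normalisation, with Cell Ranger 1.3, and the submitters' processing notes name mm10. The annotation, strand use and any depth equalisation are not given in the sources used here. The table analysed here holds the first 1068 of 27998 listed genes (3.81%), of which 1062 were placed, all on chromosome 1, and 1 incomplete row at its end was not used. The members and lists were chosen with earlier results of these data known. Beside the members, the named genes were list genes with at least 100 UMIs, the nearest such gene on each side, the 3 most alike genes per member, and Btg2. Outside this rule, the genes opposite to a member, those of lowest CpG count, the list genes without a UMI and Sgpp2 were named after their values were seen, and Scg2, Inhbb, Inha, Col3a1, Col5a2 and Cxcr4 as cell type markers. UMIs were summed per library and scaled to CPM. Intervals are 95% exact Poisson, binomial or conditional binomial, and cover counting error only. Positions came from GENCODE M21 (GRCm38) and promoters from RefSeq GRCm38.p6, matched by symbol or synonym for all 5 members. Python 3.11.15, numpy 2.4.6, scipy 1.17.1, R 4.3.3, edgeR 4.0.16 (TMM factors alone) and blastn 2.17.0 were used. Spread and thinning were tested on simulated data. Alternatives covered scaling, count minimums, thinning, cell filters and the correlation measure. A listed gene is not reported here by name.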

Additional observations from a re-analysis of the deposited data

How the results depend on the processing

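No member passed 2-fold or 1.5-fold in either direction, and every member had enough UMIs that the count minimums tried could not bear on this. Scaling moved the median of all genes by at most 0.09 on the log2 scale. The log2 ratio of Dbi went from -0.08 to 0.0076 with TMM, -0.0031 with median-of-ratios scaling and -0.0415 with Btg2 out of the totals, that of Idh1 to 0.0603 with TMM, and that of Insig2 to 0.02 with TMM. Akr1cl and Acadl stayed below 0 in all alternatives run (-0.27 to -0.14 and -0.20 to -0.08). With no minimum but 1 UMI, 1 list gene was 2-fold lower (Sgpp2, 6 and 1 UMIs), against 0. In a single thinning to 300 UMIs the vehicle and GnRH shares of cells were 12.7% and 11.7% for Akr1cl, 94.3% and 92.3% for Dbi, 41.7% and 40.1% for Idh1, 15.6% and 12.1% for Acadl, and 33.8% and 33.7% for Insig2, since thinning removes UMIs. The means over 20 thinnings were 12.6% and 11.3%, 93.9% and 92.8%, 41.1% and 39.6%, 14.8% and 12.8%, and 36.1% and 34.6% in the same order. The single thinning left 1 member past 1.5 times Poisson in vehicle cells, against 13 of 300 genes, and 1 in GnRH cells, against 12 of 292. It gave Akr1cl a spread of 2.69 in GnRH cells (mean of 20, 2.64). A plain Poisson expectation gave Dbi 3.02 and 2.60, since it leaves in the spread of cell totals. The lower of the thresholds tried counted 2 members in GnRH cells. The share of all genes at that threshold is not given here, so this count cannot be read as a result about the members. Of the member pairs, 0 of 10 reached a correlation of 0.1 in a single thinning, where 0.152% and 0.168% of all pairs did in vehicle and GnRH cells, so a count of 0 says little. By other measures, 1 did by Spearman in vehicle cells and 1 on unthinned log2 counts in GnRH cells, Akr1cl with Idh1 both times. The shares of all pairs by these other measures are not given here, so these counts have no background to be read against. Means over 20 thinnings and the whole grouping of cells by Akr1cl UMIs, with its alternatives, were chosen after seeing the data. Leaving out cells whose barcode occurs in both libraries was not run, because the column names carry no barcodes, so shared barcodes could not be counted. No paired analysis was possible because there was a single library for each treatment. The levels of Akr1cl, Acadl and Insig2, each under 1 UMI per cell on average, limit what can be said of single cells.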
